A study of Mus musculus with 42 samples.

Results

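B cells from the spleens of old mice that carry the G201V change of Psmb8 on both alleles were compared with those of old wild-type mice. The comparison used the 6 libraries of the 42 in the series whose labels give the age as Old, the cell type as B cells and the genotype as Psmb8 G201V/G201V (homozygous, 3 libraries) or Psmb8 +/+ (wild type, 3 libraries). The animals had no treatment. How many weeks old the animals were, their strain and sex, and how the B cells were sorted are not given in the sources used here. The labels number the animals 1 to 3 in each genotype, and the same numbers recur on T cell and non-BT cell (remaining cell) libraries of the spleen. The series also holds 8 young B cell libraries, 4 of each genotype, which entered the fit so that all B cell groups shared 1 estimate of the spread. The variant comes from Nakajo-Nishimura syndrome, an inherited autoinflammatory disease of the human immunoproteasome, and the comparison asks which genes differ between the genotypes in old B cells.

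The proteasome degrades ubiquitin-tagged proteins in a barrel of 4 stacked rings, the 20S core, which is capped by the 19S regulatory particle that recognises and unfolds its substrates. Lymphocytes replace the catalytic core subunits β1, β2 and β5 with Psmb9, Psmb10 and Psmb8 to form the immunoproteasome, which makes peptides for MHC class I. When proteasome activity falls short in mammalian cells, the transcription factor Nrf1 (gene Nfe2l1) is known to raise transcription of proteasome subunit genes. B cells are rich in immunoproteasome, and those that become plasma cells secrete large amounts of antibody and carry a heavy load of protein folding and degradation.

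Expression was read as FPKM, in which the authors divided each gene's mapped fragments by the length of its transcript and the size of the library. An FPKM is a share of a library, so it tells levels of RNA relative to all other RNA, and in such bulk samples fewer cells of a type and less RNA per cell cannot be told apart. The wild-type libraries held an estimated 16660000, 15920000 and 15600000 fragments, and the homozygous libraries 19800000, 20080000 and 17620000. Summed FPKM of 19 B cell identity genes was 12001 to 14762 in the 6 libraries, against 956 to 1332 in the old T cell and 1022 to 1586 in the old non-BT cell libraries. Summed FPKM of 19 T cell genes was 60.5 to 139 in the B cell libraries, against 7737 to 9597 in the old T cell libraries. B cell genes thus dominated each library. Genes of other cells were present too, macrophage genes at levels that overlapped those of old non-BT cells, and are given beside the results they touch. The 2 animals numbered 2, 1 of each genotype, stood apart from the others on the first principal component of the B cell libraries. Their sex-linked genes also differed from those of the others: the Y-linked gene Ddx3y was at 0.08 and 0.0619 FPKM in them and at 32.1 to 38.5 FPKM in the animals numbered 1 and 3. Values without both of these animals, or without 1 library, are given beside the lists they move most.

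Of 12269 genes tested, 1 differed between old homozygous and old wild-type B cells at an adjusted p below 0.05, which is 0.00815% of them (limma, Benjamini-Hochberg adjustment). At an unadjusted p below 0.05 there were 1237 genes. The 3 homozygous libraries all lay above the 3 wild-type libraries in 741 genes, or 6.04%, and all lay below them in 791 genes, or 6.45%. Counts of list members without overlap, given below, are to be read against these shares. The labels do not state that the numbered animals were reared or handled separately, so the p-values measure the spread between these samples. With the animal number as a replicate block 4 genes, or 0.0326%, passed the threshold. Without both animals numbered 2, a fit added after the values were seen, the count was 18 of 12017 genes, or 0.15%.

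The gene that passed was Gm28053, a predicted protein-coding gene on chromosome 6 (48718607 to 48752644, plus strand, GRCm38). Its level was 27.2, 29.0 and 27.5 FPKM in the wild-type libraries and 11.2, 11.3 and 14.6 FPKM in the homozygous libraries. The groups were far apart relative to their spread, with means of 27.9 ± 0.965 and 12.4 ± 1.95 FPKM (SD, n = 3 each). Gm28053 fell by 1.12 ± 0.13 (SE) on the log2(FPKM + 1) scale, with an adjusted p of 0.00806 by limma. Its annotated span runs over Gimap7, Gimap1, Gimap5 and Gimap1os of the Gimap cluster, a family of GTPases tied to lymphocyte survival, and reads in shared sequence could be counted for either gene. In none of these neighbours were the genotypes separate. Gimap1, for instance, stood at 427, 324 and 388 FPKM in wild type and at 339, 300 and 394 FPKM in homozygous libraries, a log2 difference of -0.14 ± 0.12. The log2 difference of Gm28053 was -0.27 ± 0.12 in young B cells, 0.18 in old T cells and -0.73 in old non-BT cells. The call was lost when the spread was estimated from the 6 old libraries alone (adjusted p = 0.739 by limma). It was also lost without wild-type replicate 1 (0.0599), wild-type replicate 3 (0.0675) or homozygous replicate 1 (0.078).

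Psmb8 itself, on chromosome 17 (34197721 to 34201454, plus strand), overlapped in level between the genotypes. Wild-type libraries held 731, 853 and 788 FPKM and homozygous libraries 756, 968 and 697 FPKM. The means were 791 ± 61.2 and 807 ± 142 FPKM (SD, n = 3 each), with a log2 difference of 0.02 ± 0.12 (adjusted p = 0.982 by limma). A substitution need not alter the level of the RNA that carries it, and FPKM shows no bases, so this level checks neither genotype.

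Across the constitutive proteasome, RNA levels lay higher in the homozygous B cells, subunit after subunit, although no subunit passed the test. All 14 genes of the 20S core had every homozygous library above every wild-type library, and so had 16 of the 21 genes of the 19S particle. The median log2 difference was 0.46 over the core and 0.33 over the 19S genes, against -0.04 over all genes tested. Together the 35 genes summed to 4709, 4819 and 4819 FPKM in wild type and to 7155, 5816 and 6308 FPKM in homozygous libraries. The smallest adjusted p among them was 0.23 by limma, and 0.114 with the replicate block. Without homozygous replicate 2, 5 of the 35 passed (Psma7, Psmc2, Psmc5, Psmd1 and Psmd7), among 23 of 12165 genes, or 0.189%. When any other single old library was left out, none of the 35 passed (smallest adjusted p of each fit 0.139 to 0.4 by limma). Without both animals numbered 2, 3 of the 35 passed (Psmc2, Psmd1 and Psmd7).

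Among the ring subunits of the core, Psma7 (α4) stood at 276, 306 and 302 FPKM in wild type and at 491, 403 and 444 FPKM in homozygous libraries, a log2 difference of 0.59 ± 0.11. Psma5 (α5) stood at 89.6, 87.2 and 98.1 FPKM against 170, 126 and 127 FPKM, a log2 difference of 0.60 ± 0.12. In both the lowest homozygous library exceeded the highest wild-type library by more than the whole wild-type range. The β subunits had the same order. Psmb2 (β4) stood at 261, 271 and 252 FPKM in wild type and at 366, 360 and 355 FPKM in homozygous libraries, a log2 difference of 0.46 ± 0.09. Psmb4 (β7) stood at 98.1, 109 and 102 FPKM against 164, 134 and 139 FPKM, a log2 difference of 0.49 ± 0.11. Psmb3 (β3) stood at 281, 269 and 320 FPKM against 519, 333 and 400 FPKM, with homozygous replicate 1 well above the other two.

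The catalytic subunits split by kind. Psmb5, the constitutive β5 that Psmb8 replaces, stood at 131, 129 and 133 FPKM in wild type and at 185, 153 and 149 FPKM in homozygous libraries, a log2 difference of 0.30 ± 0.11 (adjusted p = 0.39 by limma). Psmb6, the constitutive β1, stood at 339, 335 and 355 FPKM against 491, 372 and 442 FPKM, a log2 difference of 0.33 ± 0.12. Neither overlapped between the genotypes. The inducible counterparts did overlap. Psmb9 (β1i) stood at 216, 359 and 227 FPKM in wild type and at 248, 408 and 168 FPKM in homozygous libraries, a log2 difference of -0.02 ± 0.25. Psmb10 (β2i) stood at 114, 124 and 117 FPKM against 118, 122 and 110 FPKM, a log2 difference of -0.02 ± 0.10. Psmb9 was highest in the animal numbered 2 of either genotype. Of the 3 inducible subunits, none had non-overlapping groups, and whether constitutive and inducible subunits differed from each other was not tested.

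**Figure D1:**
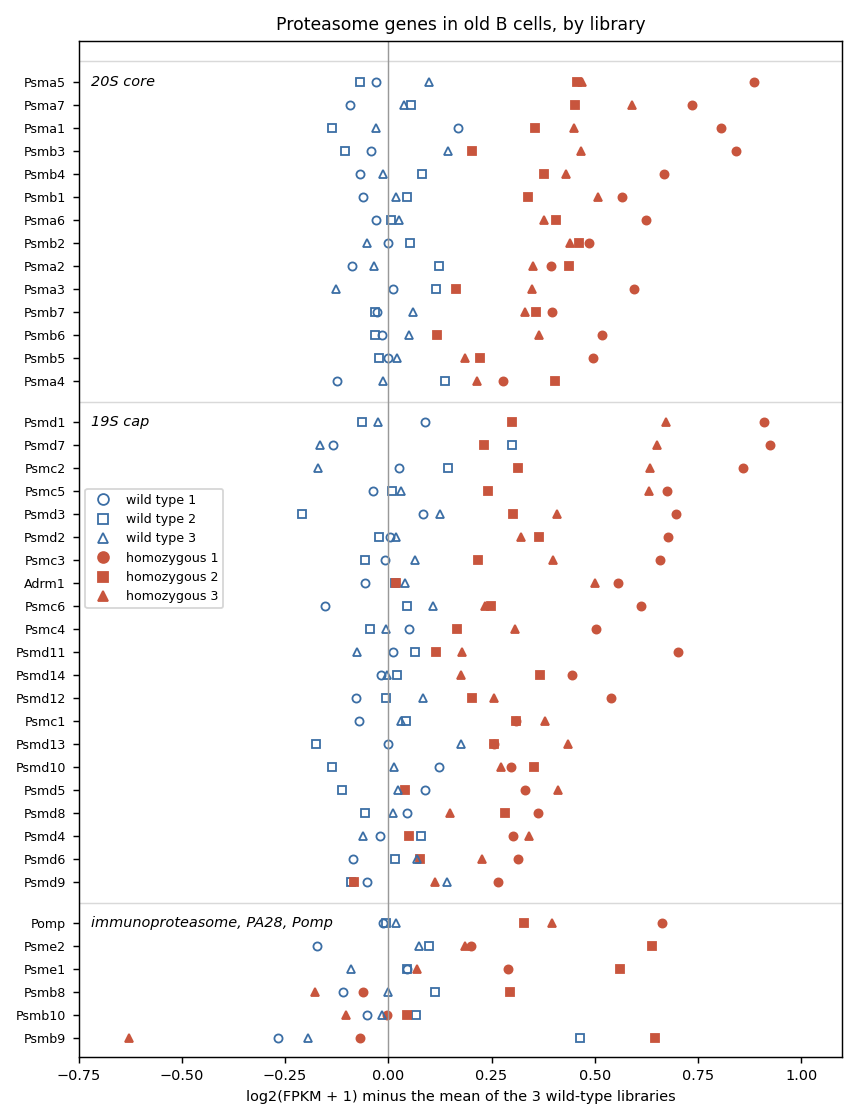
Level of each proteasome gene in the 6 old B cell libraries relative to the mean of its 3 wild-type libraries, on the log2(FPKM + 1) scale, by subunit class and with 1 point per library. Points of the homozygous libraries lie above those of the wild-type libraries in all 14 core genes, whereas the points of Psmb8, Psmb9 and Psmb10 mix.

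Factors that build or open the core lay with the constitutive subunits. Pomp, the chaperone that matures the core, stood at 228, 229 and 233 FPKM in wild type and at 365, 289 and 303 FPKM in homozygous libraries, a log2 difference of 0.46 ± 0.10. The PA28 activator subunits Psme1 and Psme2, which are induced by interferon-γ and open the core, had log2 differences of 0.31 ± 0.11 and 0.34 ± 0.12. Psme1 stood at 297, 297 and 270 FPKM against 352, 425 and 302 FPKM, so the gap between the groups was small next to the spread among homozygous libraries.

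In the 19S particle the ATPase Psmc2 (Rpt1) stood at 76.4, 83.1 and 66.6 FPKM in wild type and at 137, 93.5 and 117 FPKM in homozygous libraries, a log2 difference of 0.60 ± 0.12. Psmd1 (Rpn2), the large scaffold of its base, stood at 57.3, 51.5 and 52.9 FPKM against 102, 66.5 and 86.4 FPKM, a log2 difference of 0.63 ± 0.13. In both the homozygous animal numbered 2 was nearest to wild type. Psmd7 (Rpn8), of the lid, stood at 68.1, 92.3 and 66.6 FPKM against 143, 88.1 and 118 FPKM and overlapped between the groups, since the wild-type animal numbered 2 was as high as the homozygous animal of that number. The ubiquitin receptor Adrm1 (Rpn13) stood at 69.6, 73.3 and 74.6 FPKM against 107, 73.4 and 103 FPKM. The assembly chaperone Psmd9 had the smallest difference of the 21, 0.09 ± 0.13, and its groups overlapped.

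Highly expressed genes as a whole leaned upward in the homozygous libraries, so the proteasome was set against genes of like level. Among genes with a mean of 100 to 300 FPKM the homozygous libraries all lay higher in 16.0%, and among genes at 300 FPKM or more in 28.9%, whereas below 5 FPKM it was 3.01%. Of the 24 proteasome genes with a mean of at least 100 FPKM, 23 had every homozygous library higher. Of the 11 below 100 FPKM, whose lowest mean was 23.2 FPKM, 7 did, against 6.59% of all genes at 20 to 100 FPKM. The median log2 difference was -0.0 for genes at 20 to 100 FPKM, 0.05 at 100 to 300 FPKM and 0.11 at 300 FPKM or more. The proteasome genes as a set thus stood above genes of their own level. Over the 35 genes the median was 0.36 and all 35 differences were positive. Taken by animal number, 35, 33 and 34 of the 35 genes were higher in the homozygous animal. Leaving out any 1 old library kept the core median between 0.39 and 0.49 and the 19S median between 0.27 and 0.41.

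**Figure D2:**
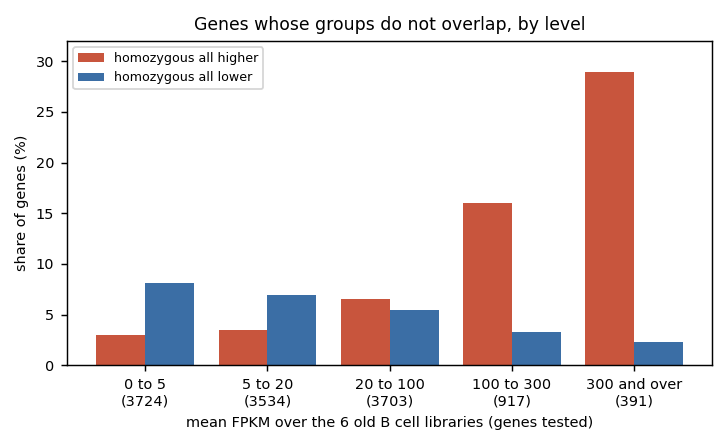
Share of tested genes, in percent, whose 3 homozygous libraries all lie above or all lie below the 3 wild-type libraries, by mean FPKM over the 6 old B cell libraries, with the number of genes under each class. The share lying higher grows from 3.01% below 5 FPKM to 28.9% at 300 FPKM or more.

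The tilt of the proteasome genes was seen in the other groups of libraries as well, at smaller size. In young B cells 31 of the 35 differences were positive with a median of 0.26, and the difference was larger in old than in young animals for 34 genes, by a median of 0.20. The test of that difference between ages gave no call for any of the 35 (smallest adjusted p = 0.695 by limma). In old T cells 32 and in old non-BT cells 34 of the 35 differences were positive, with core medians of 0.25 and 0.26 against 0.46 in B cells. Tests of B cells against T cells and against non-BT cells of the same animals gave an adjusted p of 1.0 by limma for each of the 35 genes, so a larger tilt in B cells was not shown.

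Ubiquitin supply and extraction genes were fewer on the upper side. In a list of 16 genes around Nrf1 and ubiquitin 13 differences were positive, 6 with no overlap, and the median was 0.21 (0.00 in young B cells). Vcp, the ATPase that pulls ubiquitin-tagged proteins out of complexes, stood at 150, 176 and 153 FPKM in wild type and at 236, 195 and 206 FPKM in homozygous libraries, a log2 difference of 0.41 ± 0.11. The ubiquitin-ribosome fusion gene Rps27a had a log2 difference of 0.31 ± 0.11 and the polyubiquitin gene Ubb 0.22 ± 0.09. None of the 16 passed the test.

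Nrf1 and its relatives bind antioxidant response elements, so promoters were searched for the letters TGACNNNGC of that element on both strands in the 250 bases before each start site. RefSeq promoters (GRCm38.p6) were matched for 35 of the 41 proteasome genes (core, 19S, inducible subunits, PA28 and Pomp), and 6 of them, or 17.1%, held the letters, against 10.2% of 32851 promoters. The shorter motif TGACTCA stood in 2.86% of the 35 and in 4.46% of all. Windows of 60 bases are shown for a gene with a clear separation between genotypes and a match (Psmb5), for 2 of the 19S particle (Adrm1 and Psmd9) and for the peroxidase gene Prdx1, with the matched letters in capitals. They lie at chr2:180171400-180171459 (plus strand, Adrm1), chr14:54618009-54618068 (minus strand, Psmb5), chr5:123228130-123228189 (plus strand, Psmd9) and chr4:116685440-116685499 (plus strand, Prdx1).
Adrm1: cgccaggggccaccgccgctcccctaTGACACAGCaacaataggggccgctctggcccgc
Psmb5: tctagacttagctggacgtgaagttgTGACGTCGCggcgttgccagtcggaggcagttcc
Psmd9: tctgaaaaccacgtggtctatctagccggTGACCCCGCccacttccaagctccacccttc
Prdx1: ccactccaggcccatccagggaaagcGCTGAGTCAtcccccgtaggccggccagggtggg
In Prdx1 the capitals read the element on the opposite strand and also hold the letters of the shorter motif. A match is a description of the sequence and not a bound site. The genes shown ranged in their log2 difference from 0.09 (Psmd9) to 0.72 (Prdx1).

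Prdx1, a thioredoxin-dependent peroxidase that removes hydrogen peroxide, had a larger difference than any proteasome gene. It stood at 375, 497 and 424 FPKM in wild type and at 860, 609 and 681 FPKM in homozygous libraries, a log2 difference of 0.72 ± 0.15 (adjusted p = 0.23 by limma) and 0.45 in young B cells. The groups did not overlap. Its electron donor Txn1 stood at 69.9, 107 and 68.7 FPKM against 126, 142 and 104 FPKM and overlapped slightly. Gsr, the glutathione reductase, stood at 5.68, 7.17 and 6.75 FPKM against 23.1, 6.87 and 14.8 FPKM, with homozygous replicate 2 at the wild-type level. The oxidative stress list did not move as a block: 11 of 17 differences were positive, 1 with no overlap, and the median was 0.15 (0.07 without wild-type replicate 3 and 0.09 without wild-type replicate 1).

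Ribosomal protein genes formed the other group with an even lean. Of 32 cytosolic ribosome genes all 32 differences were positive and 28 had no overlap, with a median of 0.30 against 0.08 in young B cells, 0.08 in old T cells and 0.03 in old non-BT cells. Over all 78 ribosomal protein genes that were tested, 63 had no overlap. Rps7, of the small subunit, stood at 455, 468 and 426 FPKM in wild type and at 632, 541 and 599 FPKM in homozygous libraries, a log2 difference of 0.39 ± 0.09. Rpl15, of the large subunit, stood at 296, 295 and 276 FPKM against 361, 352 and 379 FPKM, a log2 difference of 0.33 ± 0.08. Rpl7 stood at 1294, 1249 and 1217 FPKM against 1668, 1452 and 1730 FPKM. None passed the test (smallest adjusted p = 0.264 by limma), and ribosomal genes have near-identical processed copies that can share their reads. These genes lie among the most abundant, where 28.9% of all genes at 300 FPKM or more were higher without overlap.

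Energy metabolism genes leaned the same way by less. Mean log2(FPKM + 1) per library was 7.60 to 7.85 over the nuclear respiratory chain genes and 6.19 to 6.49 over the glycolysis genes. The share of all genes higher without overlap was 6.59% at 20 to 100 FPKM, 16.0% at 100 to 300 FPKM and 28.9% at 300 FPKM or more. For the nuclear genes of the respiratory chain 23 of 24 differences were positive, 11 with no overlap, with a median of 0.18 (0.01 in young B cells). Atp5o, a stalk subunit of ATP synthase, stood at 190, 203 and 189 FPKM in wild type and at 246, 256 and 247 FPKM in homozygous libraries, a log2 difference of 0.36 ± 0.09. The 13 mitochondrially encoded genes did not share this: 3 differences were positive and the median was -0.18, against 0.34 in young B cells. For glycolysis 14 of 16 differences were positive, 6 with no overlap, and the median was 0.24 (-0.20 in young B cells). Ldha, which turns pyruvate into lactate, stood at 468, 441 and 402 FPKM against 572, 696 and 481 FPKM, a log2 difference of 0.40 ± 0.13. Aldoa, the glycolytic aldolase, stood at 488, 470 and 515 FPKM against 813, 531 and 678 FPKM.

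Heat shock chaperones had the largest median of any list on the upper side, 0.58 with 16 of 16 differences positive, but only 2 of the 16 without overlap. Their summed FPKM was 6278, 4051 and 3606 in wild type and 11699, 4730 and 5809 in homozygous libraries. Homozygous replicate 1 thus stood far above the rest, and wild-type replicate 1 was also the highest of its group. Hspe1, the mitochondrial co-chaperonin, stood at 178, 129 and 113 FPKM against 487, 188 and 182 FPKM, a log2 difference of 0.89 ± 0.30. Its partner Hspd1 stood at 130, 118 and 102 FPKM against 256, 140 and 145 FPKM. Hspa8, the constitutive cytosolic Hsp70, stood at 2814, 2025 and 1682 FPKM against 4932, 2279 and 2734 FPKM and overlapped. Without homozygous replicate 1 the median was 0.21, and in young B cells it was -0.25. Without homozygous replicate 2 it was 0.90. The mean log2(FPKM + 1) over 10 genes of dissociation stress and RNA quality was 6.41, 6.31 and 5.40 in wild type and 6.77, 6.04 and 5.46 in homozygous libraries, highest in replicate 1 of each genotype as for the chaperones. The part of dissociation stress in the chaperone values was not tested.

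**Figure D3:**
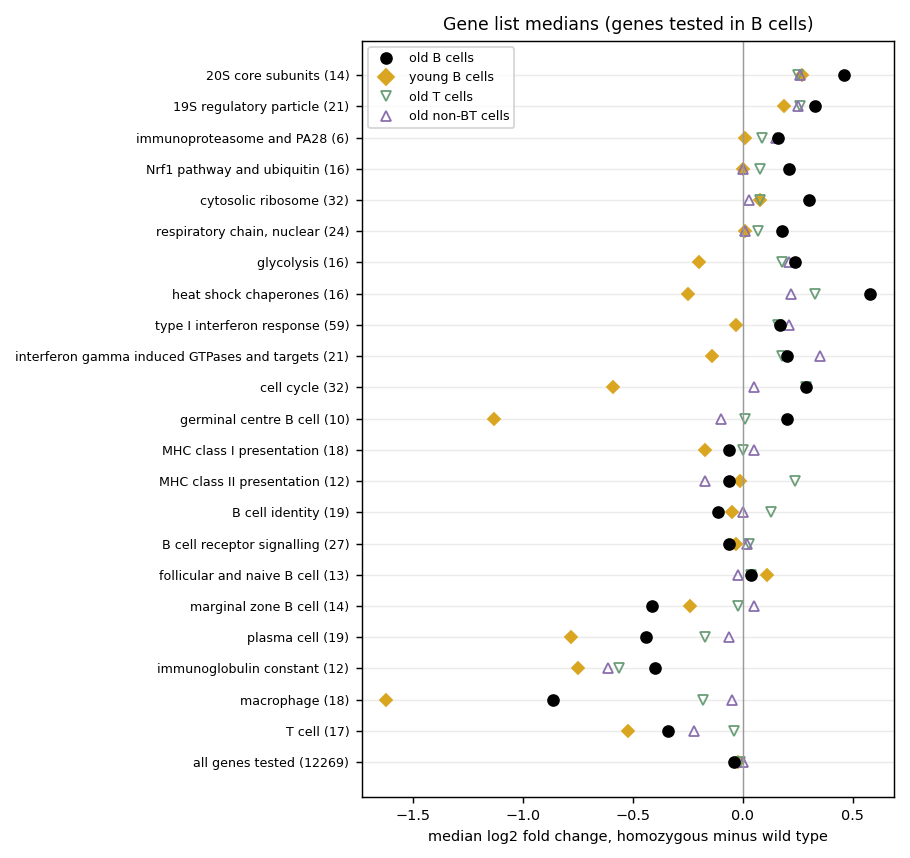
Median log2 difference, homozygous minus wild type, over the tested members of each gene list in old B cells, with the same lists in young B cells, old T cells and old non-BT cells. In old B cells the 20S core (0.46) and the ribosome (0.30) lie right of the median of all genes (-0.04), and the marginal zone (-0.41), plasma cell (-0.44) and macrophage (-0.86) lists lie left of it.

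Interferon genes, which the disease name brings to mind, showed no common separation. Of 59 type I interferon response genes 47 differences were positive, 6 with every homozygous library higher and 3 with every one lower, shares to be read against 6.04% and 6.45% of all genes. Their median was 0.17, and it was 0.09 without both animals numbered 2, 0.08 without homozygous replicate 1 and 0.33 without homozygous replicate 3. Isg20, an exonuclease against viral RNA, stood at 34.0, 34.0 and 35.3 FPKM in wild type and at 67.5, 40.6 and 51.8 FPKM in homozygous libraries, a log2 difference of 0.59 ± 0.15. Oasl2, of the 2'-5'-oligoadenylate synthetase family, stood at 6.43, 1.57 and 4.37 FPKM against 8.56, 11.2 and 8.30 FPKM, a log2 difference of 1.13 ± 0.32. Its relative Oas1b went the other way, at 3.65, 3.23 and 5.06 FPKM against 1.32, 1.67 and 2.53 FPKM. None of the 59 passed the test.

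For interferon-γ targets 17 of 21 differences were positive, 1 without overlap, with a median of 0.20. The guanylate-binding protein gene Gbp2 stood at 15.7, 17.4 and 16.4 FPKM in wild type and at 19.6, 55.6 and 17.1 FPKM in homozygous libraries, where replicate 2 alone was high. Without that library the median was -0.01, and without homozygous replicate 3 it was 0.50. MHC class I genes, whose peptides the immunoproteasome supplies, had a median of -0.06 with 12 of 18 differences negative, and of 0.06 without homozygous replicate 3. The single one without overlap was the class Ib gene H2-Q4, at 8.77, 13.9 and 7.76 FPKM against 4.39, 6.95 and 2.99 FPKM, a log2 difference of -0.96 ± 0.26. Reads of the H2-Q genes can be shared between near-identical members, so this value is uncertain. MHC class II genes had a median of -0.06 with no member without overlap.

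Surface and signalling genes of B cells had medians slightly below that of all genes tested, which was -0.04 with 6830 of 12269 differences negative. Their mean log2(FPKM + 1) per library was high, at 8.30 to 8.53 (identity) and 6.64 to 6.80 (signalling). Among all genes at 100 to 300 FPKM the median was 0.05 and 3.27% lay lower without overlap. At 300 FPKM or more the values were 0.11 and 2.3%. Of 19 B cell identity genes 16 differences were negative, 3 without overlap, where 6.45% of all genes lay lower without overlap. Their median was -0.11, moving to -0.22 without homozygous replicate 3 and to -0.17 without wild-type replicate 2. Pou2f2 (Oct-2), a B cell transcription factor, stood at 33.3, 37.2 and 34.5 FPKM in wild type and at 24.3, 29.0 and 24.5 FPKM in homozygous libraries, a log2 difference of -0.42 ± 0.11. The inhibitory co-receptor gene Cd22 had a log2 difference of -0.38 ± 0.14. Of 27 antigen receptor signalling genes 21 differences were negative, 4 without overlap, with a median of -0.06 against -0.04 over all genes. Prkcb, the kinase that leads from the receptor to NF-κB, stood at 248, 222 and 222 FPKM against 208, 159 and 173 FPKM, a log2 difference of -0.36 ± 0.12. The inhibitory receptor gene Pirb stood at 36.8, 41.0 and 37.9 FPKM against 18.9, 23.7 and 35.6 FPKM. No gene of either list passed the test.

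Marginal zone genes lay lower in the homozygous animal of each number. These innate-like B cells lie at the border of the splenic white pulp, screen the blood and depend on Notch2. All 14 of the marginal zone differences were negative, 2 without overlap, where 6.45% of all genes lay lower without overlap. The median was -0.41, against -0.24 in young B cells, -0.02 in old T cells and 0.05 in old non-BT cells. Cr2 (CD21), the complement receptor that marks them, stood at 424, 481 and 503 FPKM in wild type and at 258, 247 and 452 FPKM in homozygous libraries, a log2 difference of -0.61 ± 0.19, with homozygous replicate 3 within the wild-type range. The Notch target Hes1 stood at 41.3, 46.6 and 31.3 FPKM against 27.8, 26.4 and 28.3 FPKM, a log2 difference of -0.50 ± 0.14. S1pr3, a sphingosine-1-phosphate receptor of these cells, stood at 22.1, 50.5 and 18.6 FPKM against 8.08, 19.7 and 13.1 FPKM, lower in the homozygous animal of each number but overlapping across numbers. By animal number the mean difference over the 14 genes was -0.54, -0.46 and -0.40. Leaving out any 1 old library kept the median between -0.48 and -0.25, the latter without homozygous replicate 1, and it was -0.27 without wild-type replicate 2 and -0.31 without both animals numbered 2. The follicular list had no such lean, with 7 of 13 positive and a median of 0.04, and turned with single libraries (-0.34 without wild-type replicate 2 to 0.21 without homozygous replicate 2). The 12 memory B cell differences were negative with a median of -0.20 and none without overlap, but without wild-type replicate 2 the median was -0.02 with 6 of 12 positive.

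**Figure D4:**
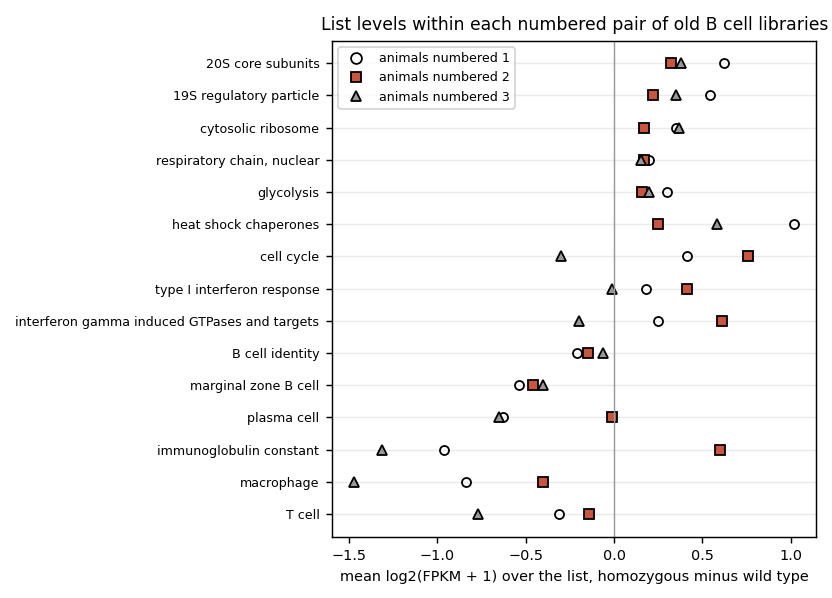
Mean log2 difference between the homozygous and the wild-type animal of the same number (1, 2 and 3) over the members of selected gene lists. The 20S core lies above 0 in each of the 3 pairs (0.62, 0.32 and 0.38), and the cell cycle genes change side (0.41, 0.76 and -0.30).

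Plasma cell genes leaned lower in 2 of the 3 animal numbers. Of 19 genes 18 differences were negative, 3 without overlap (6.45% of all genes lay lower without overlap), with a median of -0.44 (-0.78 in young B cells). In old T cells the median was -0.17 and in old non-BT cells -0.06. The list is not specific to the B cell libraries, where it summed to 1834 to 5146 FPKM. It summed to 2221 to 7911 FPKM in old T cell and 2415 to 5813 FPKM in old non-BT cell libraries. By animal number the mean difference was -0.63, -0.01 and -0.65, and without both animals numbered 2 the median was -0.62. It was -0.18 without homozygous replicate 1, -0.24 without wild-type replicate 2 and -0.70 without homozygous replicate 2. Xbp1, the transcription factor of the secretory programme, stood at 242, 296 and 320 FPKM in wild type and at 144, 312 and 188 FPKM in homozygous libraries. Sdc1 (CD138), the classical surface marker, stood at 13.3, 33.0 and 25.5 FPKM against 5.64, 19.5 and 8.65 FPKM, a log2 difference of -1.10 ± 0.37. Jchain, which joins IgM and IgA into polymers, stood at 1592, 1948 and 2960 FPKM against 490, 2025 and 1874 FPKM. Tnfrsf13b (TACI), a receptor for BAFF and APRIL on B cells and plasma cells, was without overlap at 272, 291 and 276 FPKM against 177, 205 and 261 FPKM. Chaperones and unfolded protein response genes of the endoplasmic reticulum had 18 of 24 differences negative and a median of -0.18, which ran from -0.33 (without homozygous replicate 2) to -0.07 (without homozygous replicate 3 or wild-type replicate 2). Among them Sel1l, of the complex that exports misfolded proteins for degradation, stood at 54.3, 79.6 and 63.0 FPKM against 31.9, 56.4 and 41.9 FPKM.

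Immunoglobulin genes held 20.4%, 24.4% and 25.8% of summed FPKM in wild type and 12.9%, 29.4% and 19.2% in homozygous libraries. The means of 23.5 ± 2.81% and 20.5 ± 8.35% (SD, n = 3 each) differed by -3.0 percentage points, less than the spread among homozygous libraries (two-sided exact permutation p = 0.6, where 0.1 is the smallest that 3 against 3 allows). Constant region genes alone held 9.84%, 12.6% and 12.9% against 6.07%, 11.7% and 8.62% (exact permutation p = 0.2). Young wild-type B cells held 16.1% to 21.9% and young homozygous B cells 12.7% to 16.7%.

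Of the constant regions, Ighm (IgM) stood at 11581, 16983 and 20552 FPKM in wild type and at 6393, 12432 and 11306 FPKM in homozygous libraries, a log2 difference of -0.72 ± 0.26. The κ light chain Igkc stood at 50585, 70520 and 68580 FPKM against 29503, 57969 and 42598 FPKM, a log2 difference of -0.58 ± 0.26. Both overlapped through homozygous replicate 2. Igha (IgA) stood at 1912, 2287 and 2167 FPKM against 122, 894 and 2135 FPKM, a log2 difference of -1.78 ± 0.73. Here the first homozygous animal was low and the third was at the wild-type level. Ighg3 (IgG3), an isotype made in quantity by marginal zone and B-1 cells, stood at 289, 90.8 and 581 FPKM against 18.1, 160 and 8.06 FPKM, a log2 difference of -3.04 ± 0.84 (adjusted p = 0.321 by limma). Without homozygous replicate 2 its difference was -4.24 and without both animals numbered 2 it was -4.96, and it passed the test in both. Ighg2b (-0.82 ± 0.86), Ighg2c (-0.18 ± 1.05) and Ighd (-0.06 ± 0.18) overlapped. The λ constant regions Iglc1, Iglc2, Iglc3 and Iglc4 had log2 differences of -0.53, -0.27, -0.18 and -0.05. Lower constant region RNA was not specific to B cell libraries. Over 12 listed constant region genes the median was -0.4 in old B, -0.56 in old T and -0.61 in old non-BT cells. These genes summed to 46911 to 108292 FPKM in old B, 35467 to 215515 in T and 33011 to 209014 in non-BT libraries. Ighm differed by -1.0 ± 0.56 in T and -0.88 ± 0.56 in non-BT cells, and Ighg3 by -3.65 and -3.59. Igkc (-0.52 and -0.21) and Igha (-0.6 and -0.37) differed by less there than in B cells.

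Homozygous replicate 2 stood alone in Ighg1 (IgG1), at 19109 FPKM, against 52.2 and 25.6 FPKM in the other two homozygous libraries and 127, 525 and 149 FPKM in wild type. A single pair of variable segments led in that library. Ighv5-9 stood at 20085 FPKM, which was 55.1% of its summed heavy chain V segments, and at 94.3 to 156 FPKM in the others. Igkv5-39 stood at 12774 FPKM, 21.7% of its κ V segments, but also at 387 to 7193 FPKM in the others. In wild-type replicate 3 it led the κ V segments as well, with 12.8%. The same genes were also high in the other cells of that animal, where V segments were not ranked. In its T cell library Ighg1, Ighv5-9 and Igkv5-39 stood at 58540, 54091 and 34511 FPKM, and in its non-BT cell library at 73147, 65311 and 41426 FPKM. In the other old T cell libraries Ighg1 stood at 7.07 to 1703 FPKM and in the other old non-BT cell libraries at 21.8 to 3680 FPKM. The leading heavy chain V segment of the other 5 old B cell libraries held 3.78% to 17.0%.

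**Figure D5:**
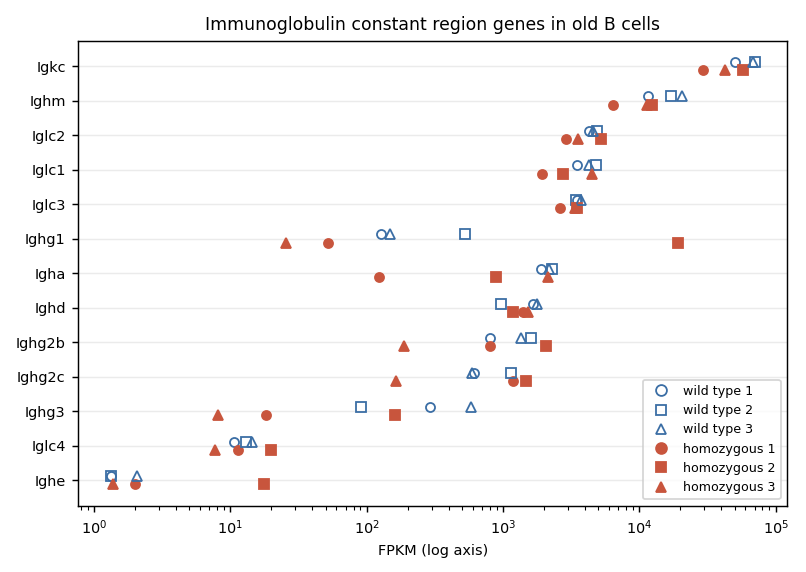
FPKM of each immunoglobulin constant region gene in the 6 old B cell libraries on a log10 axis, 1 point per library. Ighg1 of homozygous replicate 2 (19109 FPKM) lies far above the other 5 libraries (25.6 to 525 FPKM), while Ighm lies between 6393 and 20552 FPKM in all 6.

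Genes of macrophages, monocytes and T cells were also detected and mostly lower in the homozygous libraries. The macrophage genes were not at trace level, since their summed FPKM was 1189 to 2581 in the old non-BT cell libraries and 318 to 873 in the old T cell libraries. All 18 macrophage differences were negative, 2 without overlap, where 6.45% of all genes lay lower without overlap. Their median was -0.86 (-1.62 in young B cells), and summed FPKM was 925, 2503 and 1940 in wild type against 675, 1619 and 715 in homozygous libraries. The median was -0.44 without homozygous replicate 1, -0.58 without wild-type replicate 3, -1.27 without homozygous replicate 2 and -1.16 without both animals numbered 2. None of the 19 listed genes was at 0 in all 6 libraries. Mertk, a receptor for dying cells, stood at 2.90, 4.15 and 7.48 FPKM against 0.489, 1.48 and 1.88 FPKM, a log2 difference of -1.34 ± 0.37. Marco, a scavenger receptor of marginal zone macrophages, stood at 5.34, 26.0 and 1.83 FPKM against 0.724, 1.71 and 0.447 FPKM. Of 11 monocyte genes 7 differences were negative and 4 positive, none without overlap. Their median was -0.7, and it was -0.07 without homozygous replicate 1 and -1.14 without wild-type replicate 1. Lyz2, with the largest drop of that list, stood at 213, 441 and 322 FPKM against 57.2, 318 and 107 FPKM, where old non-BT cells held 7033 to 14194 FPKM. Il1b, the inflammatory cytokine made chiefly by myeloid cells, stood at 6.87, 7.96 and 7.18 FPKM against 0.561, 4.46 and 0.134 FPKM, a log2 difference of -1.97 ± 0.45 (adjusted p = 0.27 by limma). Old non-BT cells held 210 to 849 FPKM of Il1b. The endocytic receptor gene Lrp1, abundant in macrophages, stood at 2.91, 3.53 and 5.29 FPKM against 0.882, 1.61 and 0.796 FPKM. The part of macrophage RNA in these values was not tested. Of 17 T cell genes 13 differences were negative, 2 without overlap, with a median of -0.34 (-0.19 without wild-type replicate 3 and -0.55 without both animals numbered 2), among them the T cell receptor constant gene Trac at 7.11, 10.9 and 12.1 FPKM against 4.36, 4.15 and 2.89 FPKM.

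With the replicate block the other 3 genes that passed, beside Gm28053, were Hba-a2, Ighv11-2 and Gm24451. Hba-a2, an α-globin gene of red cells, had a log2 difference of -1.60 in that fit, with 18.6, 67.7 and 84.3 FPKM in wild type and 6.83, 22.6 and 21.3 FPKM in homozygous libraries, whose ranges overlap across numbers. It has a near-identical copy, and the summed erythroid markers stood at 83.1, 282 and 285 FPKM against 94.6, 109 and 159 FPKM. The part of red cell RNA in this call was not tested, and the call was lost with the block on the old libraries only (adjusted p = 0.197 by limma). The young animals did not pair by number, so the first block fit also pairs samples that share only a number. Ighv11-2, a heavy chain V segment known from B-1 cells that bind phosphatidylcholine, had a log2 difference of -1.44, with 96.3, 347 and 158 FPKM against 29.8, 136 and 62.2 FPKM, and did not pass with the block on the old libraries only. The B-1 cell list had no lean of its own, with 8 of 12 differences negative, none without overlap and a median of -0.15, which ran from -0.48 (without homozygous replicate 2) to 0.43 (without wild-type replicate 2). Gm24451 is a small nucleolar RNA gene of 133 bases, had a log2 difference of -2.55 and passed with either block. Its level was 64.4, 68.2 and 8.58 FPKM against 13.6, 13.7 and 0 FPKM. With the block on the old libraries only, 3 genes passed: Gm28053, Gm24451 and Fcer1g, a signalling chain of Fc receptors abundant in myeloid cells, at 54.5, 570 and 120 FPKM against 24.9, 81.3 and 41.5 FPKM.

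Cell cycle genes leaned upward through the animals numbered 1 and 2 and not through those numbered 3. Of 32 genes 31 differences were positive with a median of 0.29, but none was without overlap. Cenpa, the histone variant of centromeres, stood at 33.1, 39.7 and 32.5 FPKM in wild type and at 49.7, 56.0 and 38.8 FPKM in homozygous libraries, a log2 difference of 0.43 ± 0.18. Without homozygous replicate 2 the median was -0.14, and without both animals numbered 2 it was 0.04 with 19 of 32 positive. In young B cells the median was -0.59. Without homozygous replicate 3 the median was 0.66, without wild-type replicate 2 it was 0.47 and without wild-type replicate 1 it was 0.15. Germinal centre genes had 8 of 10 differences positive and a median of 0.20 in old B cells, against -1.13 in young B cells. Without both animals numbered 2 the germinal centre median was -0.07 with 4 of 10 positive, and without single libraries it ran from 0.12 (wild-type replicate 2) over 0.34 (wild-type replicate 1) to 0.56 (homozygous replicate 3). For neither list did the test of old against young give a call (smallest adjusted p = 0.679 by limma for both).

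Further single genes with no overlap and the smallest p in each direction, predicted genes left aside, were the following, none of which passed the test. Wdr90, a protein of centrioles and cilia, stood at 6.91, 6.19 and 7.56 FPKM in wild type and at 1.90, 3.32 and 2.62 FPKM in homozygous libraries, a log2 difference of -1.14 ± 0.18 (adjusted p = 0.0801 by limma). In old T cells its difference was 0.63. The phosphate transporter gene Slc20a1 stood at 15.8, 23.3 and 16.1 FPKM against 10.1, 10.6 and 7.61 FPKM, a log2 difference of -0.89 ± 0.18. Rpgrip1, a protein of the ciliary transition zone, stood at 22.3, 21.6 and 19.2 FPKM against 7.07, 11.9 and 13 FPKM. In each of these the homozygous libraries lay well below the wild-type range. Miip, an inhibitor of cell migration, stood at 48.7, 59.0 and 54.3 FPKM against 39.4, 34.3 and 35.7 FPKM. Mrtfa, an actin-sensing transcription coactivator, stood at 28.0, 26.5 and 26.9 FPKM against 20.5, 19.4 and 20.8 FPKM, a small step of -0.41 ± 0.10 with a tight spread in both groups. Marcks, a substrate of protein kinase C at the membrane, stood at 17.5, 17.0 and 12.3 FPKM against 8.90, 7.70 and 8.56 FPKM. Habp4, an RNA-binding protein, stood at 16.7, 16.9 and 15.2 FPKM against 8.30, 12.8 and 8.89 FPKM. In these 4 genes too the highest homozygous library lay below the lowest wild-type library. Adam23, a catalytically inactive adhesion protein of the ADAM family, was low throughout, at 1.31, 3.60 and 3.52 FPKM against 0.0565, 0.422 and 0 FPKM. Tctex1d2, a light chain of dynein, had a log2 difference of -1.10 ± 0.26.

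Of the up to 15 genes without overlap named on the upper side by smallest p, most were of the proteasome and the ribosome. Prdx1, AI662270, Mien1, Rn7s2 and Atp5k-ps2 lay outside them. This holds for the named genes only. Of all genes tested, 741 had every homozygous library higher. They included 30 of the 35 core and regulatory particle genes and 63 ribosomal protein genes, so most lay outside both groups. AI662270 stood at 66.5, 78.7 and 70.7 FPKM in wild type and at 119, 104 and 102 FPKM in homozygous libraries, a log2 difference of 0.58 ± 0.13. Mien1, a small membrane-associated protein, stood at 105, 109 and 110 FPKM against 140, 131 and 145 FPKM, a log2 difference of 0.36 ± 0.08. In both the genotypes were cleanly apart. Rn7s2, an RNA of the signal recognition particle with near-identical copies that make its value uncertain, stood at 59.5, 78.8 and 61.1 FPKM against 135, 86.1 and 121 FPKM. The pseudogene Atp5k-ps2 was listed at 0 in the 3 wild-type libraries and stood at 1.34, 2.64 and 4.48 FPKM in the homozygous ones. In the amino acid response, Eif4ebp1, a brake on translation, stood at 40.5, 39.7 and 41.1 FPKM against 53.6, 53.4 and 52.7 FPKM, whereas Slc3a2, a subunit of amino acid transporters, stood at 115, 134 and 125 FPKM against 88.0, 107 and 85.0 FPKM. The list as a whole had a median of 0.06 (-0.08 without homozygous replicate 2).

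Whether the genotype difference in old B cells differed from that in young B cells was tested for each gene, and none of 12269 passed (0.0%, limma; 868 at an unadjusted p below 0.05, smallest adjusted p 0.417). Among the smallest were Vamp2, a vesicle fusion protein, and the zinc finger gene Zfp763. Vamp2 stood at 54.4, 71.4 and 50.6 FPKM in old wild type and at 41.3, 31.7 and 41.2 FPKM in old homozygous libraries, a log2 difference of -0.61 ± 0.13, against 0.30 in young B cells. Zfp763 stood at 3.68, 2.92 and 2.75 FPKM against 1.01, 1.13 and 1.07 FPKM, a log2 difference of -0.98 ± 0.23, against 0.52 in young B cells. Both lay on opposite sides at the 2 ages, but neither difference between ages passed the test (adjusted p = 0.417 by limma for both). Against T cells of the same animals no gene of 14098 passed (0.0%), and against non-BT cells 2 did (0.0142%), both of them listed at 0 in every old B cell library and admitted by the filter only through the 3 non-BT libraries of 1 genotype, so these 2 say nothing of B cells.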

How the data were processed

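The deposited files hold FPKM per gene and library, calculated by the authors. The submitters' processing notes name the aligner HISAT2 2.1.0, the build GRCm38.p4, Cuffdiff without a version, and Cufflinks 2.2.1. Per the labels' protocols, RNA came from RNeasy micro columns, full-length cDNA from SMART-Seq HT and libraries from Nextera XT, which mark no strand and carry no molecular identifiers. The 47719 identifiers were named from GENCODE M21 (47305 matched). Values were tested as log2(FPKM + 1), which understates changes of low genes, with limma 3.58.1 in R 4.3.3 (trend, two-sided, Benjamini-Hochberg, threshold 0.05) on the 12269 genes that reached 1 FPKM in 3 or more of 14 B cell libraries. All 4 B cell groups were fitted together. The genotype label of young wild-type replicate 4 names Psmb9 +/+, and this library was grouped by its title. Old cell types were compared over 18 libraries with the animal as a block (correlation 0.121). The immunoglobulin share was tested with SciPy 1.17.1. The fits were tested on simulated data.

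Depth was estimated from the smallest steps of FPKM times length. At 1 FPKM a transcript of 2 kb stands for 31.2 to 40.2 fragments.

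The 47 gene lists and the comparison were chosen with earlier results of these data known, so lists are described by counts and medians without a test. Named were Psmb8, genes past the threshold, up to 15 genes without overlap per direction by smallest p, and list members by smallest p or highest level. Genes with a predicted-gene symbol (a Gm number or Rik) that did not pass the threshold were left out of the choice by smallest p. Psmb5, Psmb9, Psmd7, Psmd9, Adrm1, the Gimap genes, Ighv5-9, Igkv5-39, Gm24451, Fcer1g and Ighv11-2 fall outside this rule and were chosen after their values were seen. The fits without both animals numbered 2 and with the block on the old libraries only were likewise unplanned and added after the values were seen.

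Same-numbered old animals deviated together (Pearson's r of 0.19, 0.287 and 0.194 across genes between the deviations from the group means), so the numbers were taken as pairs for the replicate block. Young animals did not (-0.0486 to 0.16). Some genes that the rule would name are not reported here.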

Additional observations from a re-analysis of the deposited data

Results flagged for a closer look

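The test of the genotype difference in old B cells against that in old non-BT cells singled out 2 genes. Both were listed at 0 in all 6 old B cell libraries and reached the filter of 1 FPKM in 3 libraries only through the non-BT libraries of 1 genotype, so their p-values follow from that selection and are not given. Gm28069, an unprocessed pseudogene on chromosome 15 (75025294 to 75025507), was listed at 0 in wild-type non-BT cells and stood at 1.83, 4.24 and 4.08 FPKM in homozygous non-BT cells, a difference of differences of -2.08 on the log2 scale. Ighv8-10, an immunoglobulin V pseudogene on chromosome 12 (115519340 to 115519782), stood at 1.86, 2.55 and 1.91 FPKM in wild-type non-BT cells and was listed at 0 in homozygous ones, a difference of differences of 1.63.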

How the results depend on the processing

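The count of 1 gene differing in old B cells became 3 with no filter, 4 with the replicate block, 3 with the block on the old libraries only, 0 with the 6 old libraries fitted alone, 0 with these and a block, and 18 without both animals numbered 2. Leaving out single libraries gave 0 to 23 genes. Beyond the genes named in the report, the replicate block changed no call in old B cells. The interaction with age gave 0 genes, 1 with no filter and 0 to 1 without single libraries. B cells against T cells gave 0 genes, 6 with no filter and 0 to 1 without single libraries. B cells against non-BT cells gave 2 genes, 1 with a pseudocount of 0.1, 9 with no filter, 0 with quantile normalization, 0 with a replicate block and 0 without any single library. The difference of -3.0 percentage points in immunoglobulin share in old B cells ranged from -7.47 to 0.802 without single libraries, the latter without homozygous replicate 1. The causes of these shifts were not tested.

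Among 113 named genes under 18 alternatives, 1974 of 2024 values kept direction and side of the threshold, 21 newly passed it, 5 no longer passed it (all Gm28053) and 24 turned. Directions turned only for small or scattered values. Psmb8 stood at -0.01 with array weights, -0.03 without immunoglobulin genes in the scaling, -0.06 without both animals numbered 2, and -0.12 to 0.12 without single libraries. Without single libraries Psmb9 ranged from -0.35 to 0.29, Psmb10 from -0.05 to 0.02, Ighd from -0.33 to 0.10, Ighg2b from -1.62 to 0.10 and Ighg2c from -0.76 to 0.82. Ighg1 stood at -0.36 with array weights, -1.88 without both animals numbered 2 and -2.52 (without homozygous replicate 2) to 2.22 without single libraries. Ighe stood at -0.0 without both. Iglc3 stood at 0.02 and Iglc4 at 0.03 after quantile normalization, and Iglc4 at -0.39 to 0.24 without single libraries. All 35 proteasome differences stayed positive under each of the alternatives, with medians of 0.32 to 0.45. Depth limits genes near 1 FPKM, and 3 libraries a group limit every call.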

Other observations

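A marker list of age-associated B cells, a Tbx21-expressing subset that accumulates in old mice, followed the animal number and not the genotype. Its summed FPKM was 764 and 617 in the wild-type and the homozygous animal numbered 2, and 218 to 292 in the other 4 old B cell libraries. The animals numbered 2 also differed from the others in sex-linked genes, so animal number and sex cannot be told apart here. The list is not specific to this subset, since it summed to 789 to 1131 FPKM in old T cell and 618 to 807 in old non-BT cell libraries. Whether the subset itself differed between the animals was not tested. The list had 12 of 17 genotype differences negative, none without overlap, and a median of -0.21, which ran from -0.64 (without homozygous replicate 2) to 0.27 (without wild-type replicate 2).

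Malat1, a nuclear RNA whose share can move with RNA quality, stood at 1224, 2228 and 1418 FPKM in wild type and at 881, 890 and 1072 FPKM in homozygous libraries. The groups did not overlap, and the log2 difference was -0.73 ± 0.31.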
